A study of Mus musculus with 18 samples.

Results

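Undifferentiated mouse stem cells of adult origin and of the Stra8-EGFP/Rosa26 background (adult Stra8 cells) were compared with undifferentiated embryonic stem cells of the 129SV background (ES 129SV cells). The arrays were chosen by their titles alone, 3 for adult Stra8 and 3 for ES 129SV, which makes 6 of the 18 arrays of the series. All 19938 genes that a probe set of the Affymetrix Mouse Gene 1.0 ST array names singly were described, each as the mean of the adult Stra8 arrays minus the mean of the ES 129SV arrays. The other arrays come from undifferentiated adult 129SV and ES Stra8 cells and from differentiated ES and adult 129SV cells, 3 of each. The series names the adult cells as germline stem cells and asks how similar they are to ES cells. Values are log2 signals made from 300 ng of total RNA per array, so that a difference of 1 is 2-fold, and the number of arrays limits the precision.

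The compared cells differ in origin and in genetic background at once, and origin, background, cell line and culture cannot be told apart in this pair. The labels name the Stra8-EGFP/Rosa26 background without describing its alleles, and they do not state the number of lines, the passage, the use of feeder cells or the date of hybridisation. The arrays are labelled as biological replicates, and p-values measure the spread between these arrays. In RNA from whole cultures, fewer cells of a type and less RNA per cell cannot be told apart. The 2 remaining undifferentiated groups each share either the origin or the background with one of the compared groups, and their levels are given beside the results as arrays outside the difference itself, although all 18 arrays entered the estimate of the spread.

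Adult germline stem cells are derived from spermatogonia of the testis, and in culture they can take on features of embryonic stem cells. Embryonic stem cells are kept undifferentiated by a network around the transcription factors Oct4 (encoded by Pou5f1), Sox2 and Nanog, helped by the cytokine LIF. Meiosis, the division that makes haploid germ cells, needs a set of proteins that is largely silent in other cells, among them the synaptonemal complex that holds paired chromosomes together. Cells that sense virus or interferon switch on a common antiviral set of genes through the transcription factors of the STAT and IRF families. Cells short of oxygen raise glycolysis through hypoxia-inducible factors.

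The profiles were close, with most differences small. Arrays of the 2 groups correlated across genes with a mean Pearson r of 0.979, against 0.997 among the ES 129SV arrays and 0.998 among the adult Stra8 arrays. For 95.2% of genes the 95% confidence interval of the change lay within 2-fold in both directions. The median size of a change was 0.16 on the log2 scale. At an adjusted p under 0.05 (limma, Benjamini-Hochberg over all 19938 genes), 3575 genes (17.9%) were higher and 3945 (19.8%) were lower in adult Stra8 cells. At least 2-fold as well were 182 higher genes (0.913%) and 386 lower genes (1.94%). Beyond 4-fold, 12 genes were higher and 81 were lower, so the large differences lay mostly on the side of genes with less signal in adult Stra8 cells.

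**Figure D1:**
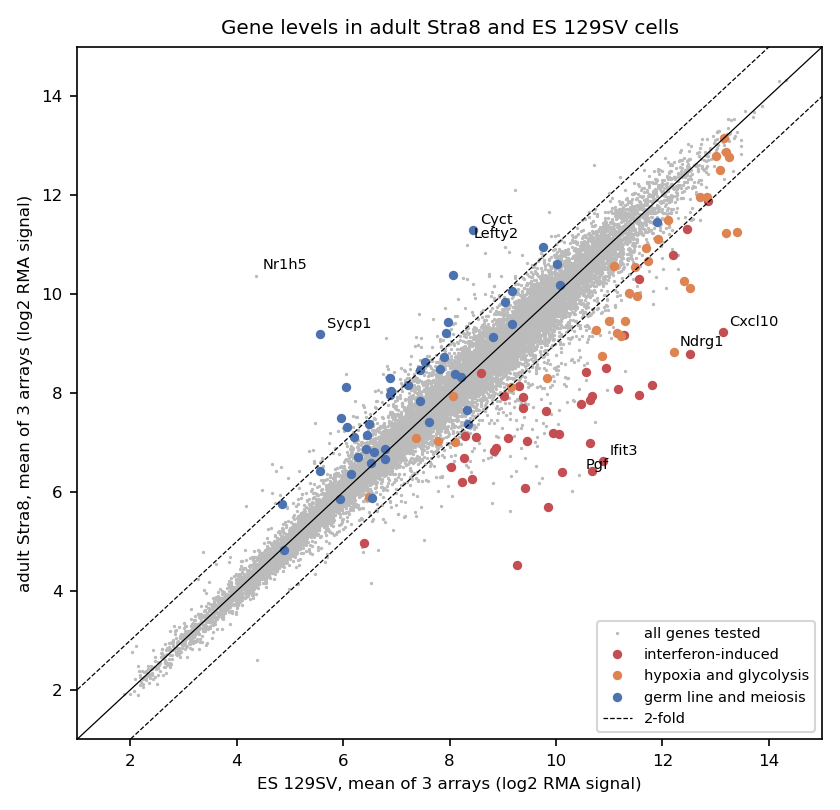
Each point is 1 gene, with its mean log2 RMA signal over the 3 ES 129SV arrays on the x axis and over the 3 adult Stra8 arrays on the y axis. The dashed lines mark 2-fold, and the coloured points are the members of 3 gene lists. All 41 interferon-induced genes lie below the diagonal, and Nr1h5 stands farthest above it.

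Genes of the interferon response made up most of the largest decreases. They encode antiviral effectors, the factors that switch them on, and chemokines that attract lymphocytes. All 41 measured genes of an interferon-induced list were lower in adult Stra8 cells (against 19.8% of all genes), 39 of them at least 2-fold, and the median change was -2.17 against -0.02 for all genes. The antiviral effector Ifit3 had log2 signals of 6.57, 6.66 and 6.64 on the adult Stra8 arrays and 10.88, 10.97 and 10.83 on the ES 129SV arrays. Its arrays did not overlap, and the change was -4.27 (SE 0.09, adjusted p = 7.3e-15, limma), which is 19.3-fold. Ifit3b, a near-identical neighbour whose probes may share signal with Ifit3, changed by -4.73 (SE 0.12).

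The chemokine Cxcl10, which draws activated T cells, was among the brightest genes of this set in ES 129SV cells. Its signals were 9.35, 9.26 and 9.11 in adult Stra8 cells and 13.17, 13.13 and 13.14 in ES 129SV cells, a change of -3.91 (SE 0.08, adjusted p = 7.3e-15, limma). The related chemokines Cxcl11 and Cxcl9 changed by -4.29 (SE 0.14) and -3.44 (SE 0.10). Irf7, a master factor for interferon production, was at 8.88, 8.77 and 8.74 in adult Stra8 cells and at 12.53, 12.52 and 12.52 in ES 129SV cells. Again no array of one group reached the other group, and Irf7 changed by -3.73 (SE 0.09). Rsad2 (viperin, which blocks viral replication) fell by 4.26 (SE 0.10) and Usp18, which removes the ubiquitin-like protein ISG15, by 3.59 (SE 0.09). Cmpk2, Gbp3, Trim30a, Iigp1 and Ddx60 were also among the 15 largest decreases, with changes between -4.16 and -3.51.

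Families beyond the list, picked by symbol after their values were seen, were uniform in part. Of the guanylate-binding proteins, which attack the vacuoles of intracellular pathogens, 8 of 8 were lower and 6 at least 2-fold. Of the Ifi200 family of DNA sensors, 10 of 10 were lower, with Ifi205 at -3.53 (SE 0.17). The members of both families are close paralogs, so the values of single members are uncertain. Other families were mixed, while over all genes 19.8% were lower and 17.9% were higher. Of 10 Schlafen genes 4 were lower and 2 higher, and of 11 PARP genes 7 were lower and 1 higher. Of 19 CC chemokines 4 were lower and 3 higher, close to the shares of all genes, with a median of -0.06. Nos2, the inducible nitric oxide synthase, changed by -3.11 (SE 0.08), and Ccl5, the CC chemokine with the largest change, by -3.33 (SE 0.11), both chosen after their values were seen. Among 29 genes of the H2 antigen-presenting complex, 10 were lower and 0 were higher (19.8% and 17.9% of all genes). At an unadjusted p under 0.05 (limma), 15 were lower and 1 was higher. With the arrays centred or quantile normalised, 15 were called lower and 0 higher.

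The interferon-response element GAAANNGAAA, which STAT and IRF factors can bind, was searched on both strands in RefSeq promoter windows of 300 bases (250 before and 50 after the start, assembly GRCm38.p6). It was found in 16 of the 30 list members with a window (53.3%), in 3.89% of the 15614 genes with a window and in 16.2% of the genes at least 2-fold lower. A match describes letters and not binding. The 250 bases before the start of Ifit3 (chr19:34583279-34583528, plus strand) and Cxcl10 (chr5:92348890-92349139, minus strand) are shown because these genes combine a large decrease with a match, in capitals.
Ifit3: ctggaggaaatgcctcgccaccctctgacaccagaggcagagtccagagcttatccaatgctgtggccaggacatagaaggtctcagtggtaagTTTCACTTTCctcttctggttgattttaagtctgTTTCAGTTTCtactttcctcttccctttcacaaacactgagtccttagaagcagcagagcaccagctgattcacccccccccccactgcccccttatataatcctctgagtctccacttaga
Cxcl10: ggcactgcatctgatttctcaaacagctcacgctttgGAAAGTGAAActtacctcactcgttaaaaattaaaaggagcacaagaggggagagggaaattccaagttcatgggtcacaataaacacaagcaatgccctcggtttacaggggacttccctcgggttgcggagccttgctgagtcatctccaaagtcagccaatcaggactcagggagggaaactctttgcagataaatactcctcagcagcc
Ifit3 holds 2 matches and Cxcl10 holds 1.

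In the other undifferentiated groups, the interferon genes were nearer to adult Stra8 than to ES 129SV. Mean levels over the 41 genes were 10.05 to 10.07 on the ES 129SV arrays and 7.63 to 7.67 on the adult Stra8 arrays. They were 7.26 to 7.31 on the adult 129SV arrays and 7.35 to 7.37 on the ES Stra8 arrays. Of the 39 members at least 2-fold lower, 37 had both other undifferentiated groups nearer to adult Stra8 than to ES 129SV. Over all 386 genes at least 2-fold lower, this share was 79.5%. Between the 2 Stra8 groups, 22 of the 41 were higher in adult Stra8 than in ES Stra8 and 1 was lower (13.2% and 15.1% of all genes), with a median difference of 0.26. For Cxcl10 the mean was 8.79 in ES Stra8 and 7.30 in adult 129SV.

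Genes of glycolysis and the hypoxia response formed another block of decreases. Of 33 measured list members, 31 were lower (against 19.8% of all genes), 17 of them at least 2-fold, and 0 were higher, also at an unadjusted p under 0.05 (limma). The median change was -1.02. Ndrg1, a stress gene that hypoxia induces, was at 8.89, 8.82 and 8.77 in adult Stra8 cells and at 12.21, 12.20 and 12.23 in ES 129SV cells. With groups well apart, it changed by -3.38 (SE 0.07, adjusted p = 5.6e-15, limma). Bnip3, which targets mitochondria for breakdown, was at 10.17, 10.15 and 10.07 against 12.54, 12.52 and 12.49, a change of -2.38 (SE 0.05). Ero1a, which oxidises disulphide bonds in the endoplasmic reticulum, changed by -2.15 (SE 0.05), and the vasodilator peptide gene Adm by -2.13 (SE 0.06).

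Signals of genes for glucose use were lower at several points of the pathway. The glucose transporter Slc2a1 changed by -1.97, the regulator Pfkfb3 by -2.07, the lactate exporter Slc16a3 by -1.84 and Pdk1, which keeps pyruvate out of the mitochondria, by -1.48. The late glycolytic enzymes changed less, with Pgk1 at -0.73, Ldha at -0.32 and Pkm at -0.22. Hk1, the constitutive hexokinase, and Eno2 did not pass the test, with changes of 0.01 and -0.11. Apart from Ndrg1, Bnip3, Ero1a and Adm, these members were chosen after their values were seen. Pgf, a placental growth factor of the VEGF family that is outside the list, was at 6.39, 6.30 and 6.32 against 10.36, 10.42 and 10.52, and its change of -4.09 (SE 0.08) was the sixth largest decrease of all. Of the 35 genes of the respiratory chain, 16 were lower and 2 were higher (19.8% and 17.9% of all genes), with a median of -0.16.

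The core of the hypoxia-response element, ACGTG, was found on either strand in the promoter windows of 22 of 30 list members (73.3%) and of 24.4% of all genes. Bnip3 (chr7:138909507-138909756, minus strand) and Ero1a (chr14:45318573-45318822, minus strand) are shown over the 250 bases before the start, with the core in capitals.
Bnip3: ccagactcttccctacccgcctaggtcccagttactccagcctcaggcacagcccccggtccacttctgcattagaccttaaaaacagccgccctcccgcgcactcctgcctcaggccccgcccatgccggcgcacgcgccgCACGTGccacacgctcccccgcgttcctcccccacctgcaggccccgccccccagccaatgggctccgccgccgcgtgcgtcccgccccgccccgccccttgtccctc
Ero1a: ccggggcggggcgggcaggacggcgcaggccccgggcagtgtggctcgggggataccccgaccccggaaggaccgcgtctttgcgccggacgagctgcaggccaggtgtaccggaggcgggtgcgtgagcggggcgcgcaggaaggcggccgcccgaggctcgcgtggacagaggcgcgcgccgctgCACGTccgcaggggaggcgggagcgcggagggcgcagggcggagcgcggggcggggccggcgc
In Bnip3 the core lies on both strands as the palindrome CACGTG, so its 2 matches overlap. Among the genes at least 2-fold lower as a whole, 29.4% held the core, against 30.7% of those at least 2-fold higher. In the germ line list described below, which rose, 56.4% held it. A further motif searched, CCCGCC, was also frequent in the hypoxia windows, at 80.0% against 52.4% of all genes.

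The hypoxia genes were high in ES 129SV against each of the other 3 undifferentiated groups. The mean over the list was 11.22 to 11.26 on the ES 129SV arrays, 10.03 to 10.09 in adult Stra8, 10.08 to 10.13 in adult 129SV and 9.86 to 9.89 in ES Stra8. Of the 17 members at least 2-fold lower, 15 had both other groups nearer to adult Stra8. Over all 386 genes at least 2-fold lower, this share was 79.5%. Ero1a had a mean of 11.29 in ES Stra8 and 10.25 in adult 129SV.

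**Figure D2:**
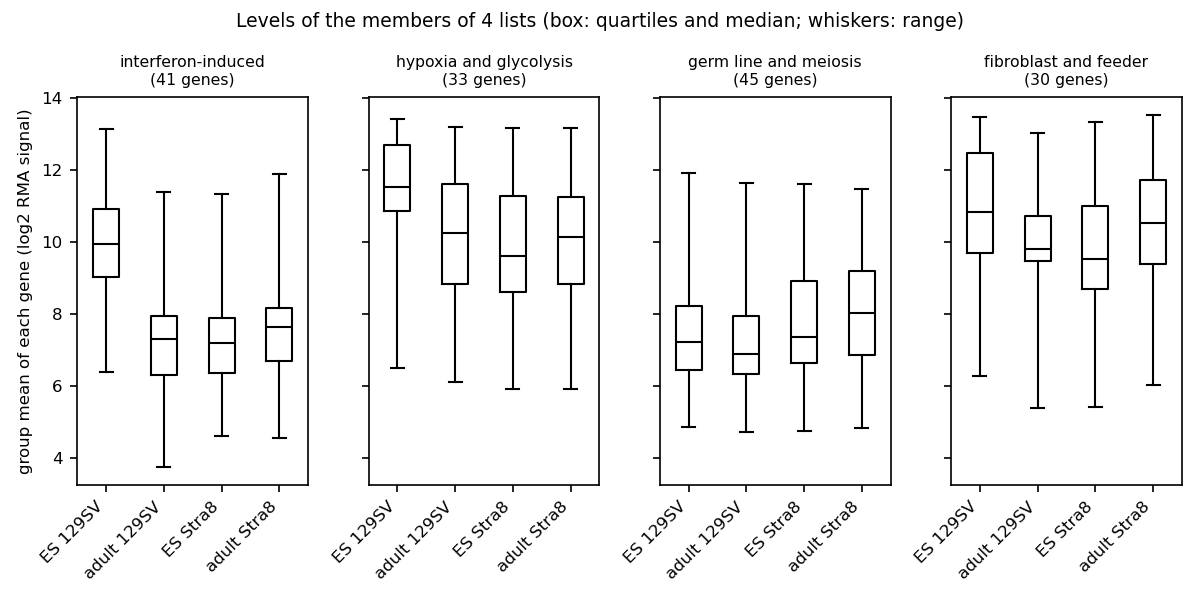
Boxes show the quartiles and median over the genes of 4 lists, and whiskers the range, of group mean log2 signals in the 4 undifferentiated groups. The ES 129SV box is the highest for the interferon list (median 9.95) and the hypoxia list (median 11.53), while the germ line list is highest in adult Stra8 (median 8.03).

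Markers of fibroblasts, the cells commonly used as feeder layers, were also more often lower than higher. Of 30 genes, 20 were lower and 2 were higher (19.8% and 17.9% of all genes), with a median of -0.42. The mean level of the list was 10.88 to 10.91 on the ES 129SV arrays and 10.47 to 10.51 on the adult Stra8 arrays. It was 9.96 to 10.03 in adult 129SV and 9.74 to 9.78 in ES Stra8, so ES 129SV was highest and adult Stra8 second, as in the interferon list. The hypoxia list did not share this order, with 10.03 to 10.09 in adult Stra8 and 10.08 to 10.13 in adult 129SV. Postn, a matrix protein of fibroblasts, changed by -1.53 (SE 0.12), the collagens Col3a1 and Col1a2 by -1.20 (SE 0.05) and -1.04 (SE 0.07). The defining collagens were bright in both groups, with Col1a1 at 12.33, 12.35 and 12.33 in adult Stra8 cells and at 13.12, 13.15 and 13.21 in ES 129SV cells. Their part in the decreases of the interferon and hypoxia genes was not tested. Markers of macrophages and blood gave 7 lower and 3 higher of 20 (19.8% and 17.9% of all genes), with means of 7.26 to 7.31 in adult Stra8 and 7.30 to 7.35 in ES 129SV.

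Genes of the germ line and meiosis went the other way. Of 45 measured list members, 30 were higher in adult Stra8 cells (against 17.9% of all genes) and 5 were lower. The 14 that changed at least 2-fold were all higher, and the median change was 0.69. Sycp1, the rod of the synaptonemal complex, was at 9.11, 9.29 and 9.18 in adult Stra8 cells and at 5.53, 5.55 and 5.63 in ES 129SV cells. The groups stood apart without overlap, and Sycp1 changed by 3.62 (SE 0.06, adjusted p = 8.06e-16, limma), which is 12.3-fold and second among all increases. Meioc, which keeps germ cells in the meiotic programme, was at 10.44, 10.32 and 10.43 against 8.11, 8.14 and 7.97, a change of 2.32 (SE 0.17). Cyct, the cytochrome c of the testis, changed by 2.85 (SE 0.14), and Boll, an RNA-binding protein of meiotic germ cells, by 2.07 (SE 0.09).

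Other parts of the meiotic and germ-granule machinery followed with smaller changes. The RNA helicase Ddx4, a marker of germ cells, was at 8.45, 8.54 and 8.42 in adult Stra8 cells and at 7.49, 7.29 and 7.53 in ES 129SV cells, a change of 1.04 (SE 0.08). The axial-element genes Sycp2 and Sycp3 changed by 1.55 and 1.13, the meiotic cohesin Smc1b by 1.48, and the Tudor-domain genes Tdrd1, Tdrd5 and Tdrd12 by 1.23, 1.08 and 1.19. Outside the list, the recombination genes Iho1, Meiob and Hfm1 changed by 1.61 (SE 0.09), 1.53 (SE 0.17) and 1.47 (SE 0.13). All genes of this paragraph other than Ddx4 and Kctd19 were chosen after their values were seen. Kctd19, which acts in meiotic prophase, changed by 2.32 (SE 0.09) and ranked among the 15 largest increases.

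Not every germ line gene joined in. Dazl, an RNA-binding protein that licenses germ cells for meiosis, was at 7.35, 7.45 and 7.33 in adult Stra8 cells and at 8.46, 8.34 and 8.25 in ES 129SV cells, a change of -0.97 (SE 0.10). Stra8, the retinoic-acid target that opens meiosis and gives the background its name, was dim, at 5.83, 5.89 and 5.89 against 6.52, 6.52 and 6.56, and changed by -0.67 (SE 0.12, adjusted p = 0.000344, limma). Both were lower on every adult Stra8 array than on any ES 129SV array. Slc25a31, Dnmt3l and Rec8 were the other members called lower, at -0.66, -0.44 and -0.19, Slc25a31 and Rec8 being named because they complete this count of 5. The recombination starters Spo11 and Prdm9 did not pass the test, with changes of -0.06 and 0.06.

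The E-box CACGTG was found in the promoter windows of 17 of 39 germ line members (43.6%), of 9.5% of all genes and of 20.5% of the genes at least 2-fold higher. This palindrome holds the ACGTG core on both strands, so the 2 motifs overlap. The motif CCCGCC was in 53.8% of germ line windows and 52.4% of all. Sycp1 (chr3:102936101-102936350, minus strand) and Boll (chr1:55363754-55364003, minus strand, 1 of its 2 windows) are shown over the 250 bases before the start, with the E-box in capitals.
Sycp1: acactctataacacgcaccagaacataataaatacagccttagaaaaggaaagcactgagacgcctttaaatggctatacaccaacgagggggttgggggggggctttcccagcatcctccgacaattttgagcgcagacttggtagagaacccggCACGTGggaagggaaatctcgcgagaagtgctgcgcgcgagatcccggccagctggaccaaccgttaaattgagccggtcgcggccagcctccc
Boll: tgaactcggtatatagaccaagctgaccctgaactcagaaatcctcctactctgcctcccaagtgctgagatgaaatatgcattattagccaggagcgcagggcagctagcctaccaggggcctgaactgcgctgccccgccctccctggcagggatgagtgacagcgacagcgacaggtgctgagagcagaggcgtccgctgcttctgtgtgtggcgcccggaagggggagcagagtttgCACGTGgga
Each of these stretches holds 1 match.

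The germ line increases were steps across the groups. The mean over the 45 members was 7.38 to 7.41 on the ES 129SV arrays, 7.25 to 7.27 in adult 129SV, 7.70 to 7.73 in ES Stra8 and 8.10 to 8.13 in adult Stra8. Of the 14 members at least 2-fold higher, 8 were split by background, with ES Stra8 nearer to adult Stra8 and adult 129SV nearer to ES 129SV. For 5 of them adult Stra8 stood alone, and for 1 ES 129SV did. Over all 182 genes at least 2-fold higher, these shares were 67.0%, 21.4% and 9.89%. Sycp1 had a mean of 7.74 in ES Stra8 and 5.81 in adult 129SV, and its adult Stra8 level exceeded that of ES Stra8 by 1.46 (adjusted p = 2.01e-10, limma). Cyct was at 9.16 and 8.62 in the same groups, each at least 2.14 below adult Stra8. Against ES Stra8, 24 of the 45 members were higher in adult Stra8 and 7 were lower (13.2% and 15.1% of all genes). Against adult 129SV, 32 were higher and 3 were lower (24.2% and 26.8% of all genes). These comparisons share the adult Stra8 arrays and are given side by side.

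The largest single change belonged to Nr1h5, the nuclear receptor FXR-beta. Its signals were 10.41, 10.39 and 10.33 in adult Stra8 cells and 4.52, 4.17 and 4.41 in ES 129SV cells. The gap of 6.01 (SE 0.10, adjusted p = 8.06e-16, limma) is 64.5-fold. Its mean was 8.97 in ES Stra8 and 4.53 in adult 129SV, so that the Stra8 groups were high and the 129SV groups low. Aqp3, a water and glycerol channel, followed the same order, with means of 12.10 in adult Stra8, 11.64 in ES Stra8, 9.73 in adult 129SV and 9.23 in ES 129SV, and changed by 2.88 (SE 0.07). Lncpint, a non-coding RNA, changed by 1.98 (SE 0.05) and Acss1, a mitochondrial acetyl-CoA synthetase, by 2.17 (SE 0.08). The axonal transport motor gene Kif1a changed by 2.08 (SE 0.06). Nr1h5 and Sycp1, the 2 largest increases, both lie on chromosome 3, and both were split by background. Whether their changes are independent was not tested.

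Lefty1 and Lefty2, secreted inhibitors of Nodal signalling, were both strongly higher. Lefty2 was at 11.05, 11.02 and 10.94 in adult Stra8 cells and at 8.29, 8.41 and 8.29 in ES 129SV cells, a change of 2.67 (SE 0.07), and Lefty1 changed by 2.17 (SE 0.09). The genes are neighbours and close paralogs. Nodal, the ligand they inhibit, changed by -0.45 and was chosen after its values were seen. Lefty2 was at 10.89 in ES Stra8 and 9.26 in adult 129SV, and Lefty1 at 10.56 and 10.16, so ES 129SV held the lowest level of both. Among 29 genes of Nodal, BMP and TGF-beta signalling, 14 were lower and 6 were higher (19.8% and 17.9% of all genes), with Bmp4 at -1.19 (SE 0.10) and Tgfb1 at -1.07 (SE 0.06).

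**Figure D3:**
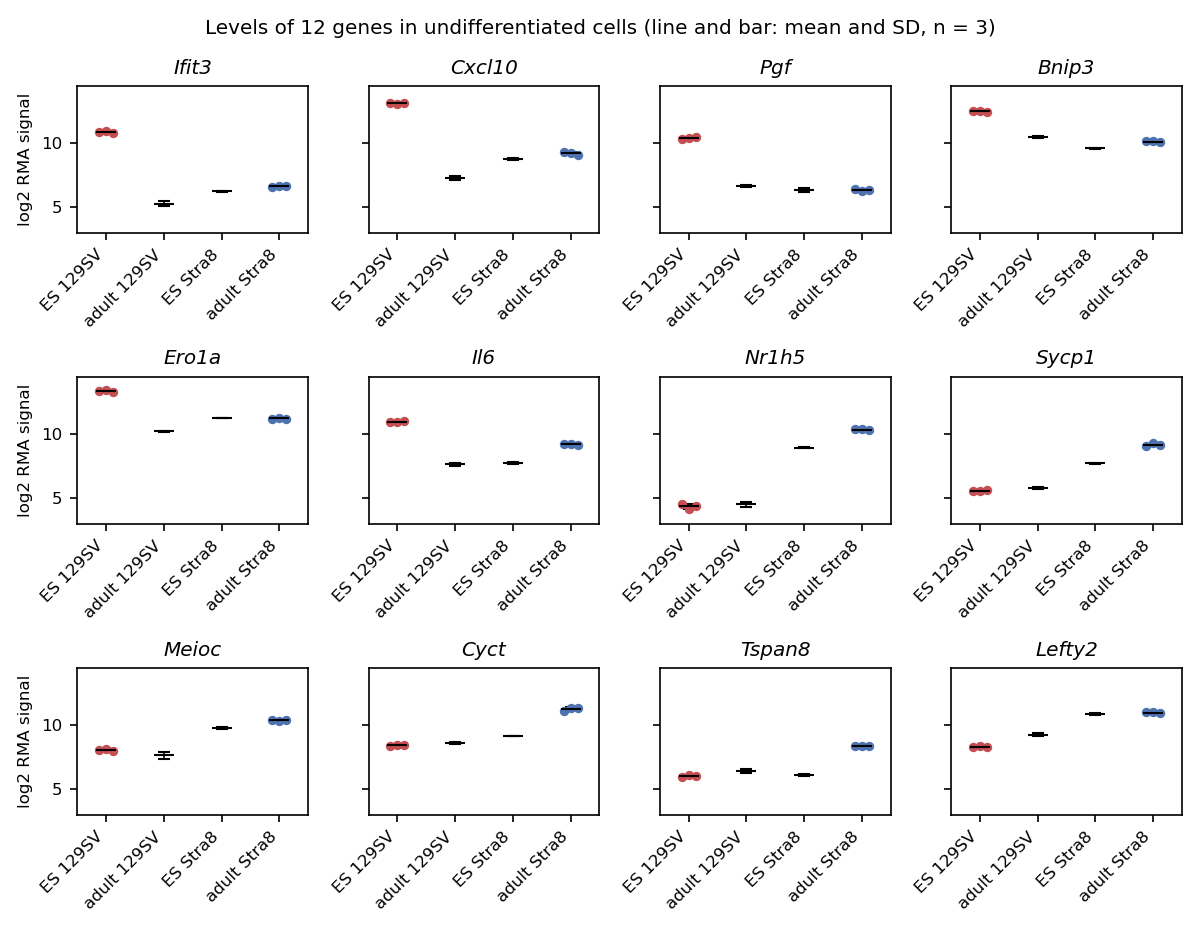
Points are the 3 arrays of ES 129SV (red) and adult Stra8 (blue), and black lines with bars are means and SDs of 3 arrays in the 4 undifferentiated groups, on the log2 scale. Ifit3, Cxcl10, Pgf, Bnip3, Ero1a and Il6 are highest in ES 129SV, Nr1h5 and Lefty2 are high in both Stra8 groups, and Cyct and Tspan8 are highest in adult Stra8.

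The core pluripotency genes differed little. Sox2 was at 11.62, 11.56 and 11.51 in adult Stra8 cells and at 11.60, 11.58 and 11.68 in ES 129SV cells, with overlapping arrays and a 95% confidence interval of -0.28 to 0.18. Zfp42 (Rex1) did not pass the test, with an interval of -0.41 to 0.23. Pou5f1 was at 12.29, 12.27 and 12.23 against 12.68, 12.62 and 12.51 and changed by -0.34 (SE 0.10, adjusted p = 0.00981, limma), and Nanog by -0.45 (SE 0.05). Klf4 changed by -0.24 (SE 0.06) and Dppa5a by -0.36 (SE 0.08). Of 30 list members, 12 were higher and 13 lower (17.9% and 19.8% of all genes), with a median of -0.11. The largest changes in the list were the increases of Lefty2 (2.67) and Lefty1 (2.17) given above. Eras, an ES-specific Ras whose signal of 6.58 to 6.67 in ES 129SV was low, changed by -1.02 (SE 0.19). The chromatin protein gene Utf1 changed by -0.99 (SE 0.08). Dppa3 (Stella), a germ cell and naive-state marker, changed by 0.51 (SE 0.11).

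Genes of FGF, ERK and LIF signalling were more often lower than higher. Of 38 list members, 19 were lower and 3 were higher (19.8% and 17.9% of all genes), with a median of -0.23. The cytokine Il6 was at 9.27, 9.28 and 9.14 in adult Stra8 cells and at 11.00, 10.94 and 11.02 in ES 129SV cells, a change of -1.75 (SE 0.13), and Lif changed by -0.99 (SE 0.07). Fibroblasts also make both cytokines, and the part of the fibroblast genes above in this was not tested. The ERK feedback inhibitors Spred1 and Spry4 changed by -1.20 (SE 0.05) and -1.01 (SE 0.05). Of the primed-epiblast list of 15 genes, 5 were lower and 2 higher (19.8% and 17.9% of all genes), with Eomes at -1.50 (SE 0.05) and Lef1 at -1.48 (SE 0.07) against Zic2 at 1.02 (SE 0.08) and Pim2 at 0.91 (SE 0.10).

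Markers of the spermatogonial stem cell did not set the adult cells apart. Of 27 genes, 7 were higher and 7 were lower (17.9% and 19.8% of all genes), with a median of -0.07. Gfra1, the GDNF receptor of spermatogonia, was at 7.91, 7.89 and 7.90 in adult Stra8 cells and at 8.49, 8.57 and 8.24 in ES 129SV cells, a change of -0.54 (SE 0.09). Every adult Stra8 array was below every ES 129SV array. Uchl1 and Sohlh2, both expressed in spermatogonia, changed by 0.77 (SE 0.10) and 0.56 (SE 0.06), while Kit did not pass the test, with an interval of -0.08 to 0.18. Of 19 markers of somatic testis cells, 2 were higher and 2 were lower (17.9% and 19.8% of all genes). With the arrays centred 2 were higher and 5 lower, and after quantile normalisation 3 and 5. Inha, a Sertoli and granulosa cell gene, changed by -1.22 (SE 0.12).

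Markers of differentiated lineages showed few large changes. Neural ectoderm gave 5 higher and 2 lower of 22, mesoderm 2 and 5 of 26, and trophectoderm 5 and 6 of 20 (17.9% and 19.8% of all genes). With the arrays centred or quantile normalised, 4 neural genes were lower. Among endoderm and extraembryonic genes, 10 were higher and 9 lower of 32 (17.9% and 19.8% of all genes), and the keratin Krt19 changed by -2.46 (SE 0.06), against 1.15 (SE 0.06) for the endocytic receptor Lrp2 and 1.05 (SE 0.08) for the proteoglycan Srgn. Of 37 Hox genes 5 were higher and none was lower (17.9% and 19.8% of all genes), with Hoxd13 at 0.63 (SE 0.09). Hox levels were low, with a median of 7.04 in adult Stra8. At an unadjusted p under 0.05 (limma), 1 Hox gene was lower, and with the arrays centred or quantile normalised 4 were called higher and 1 lower.

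**Figure D4:**
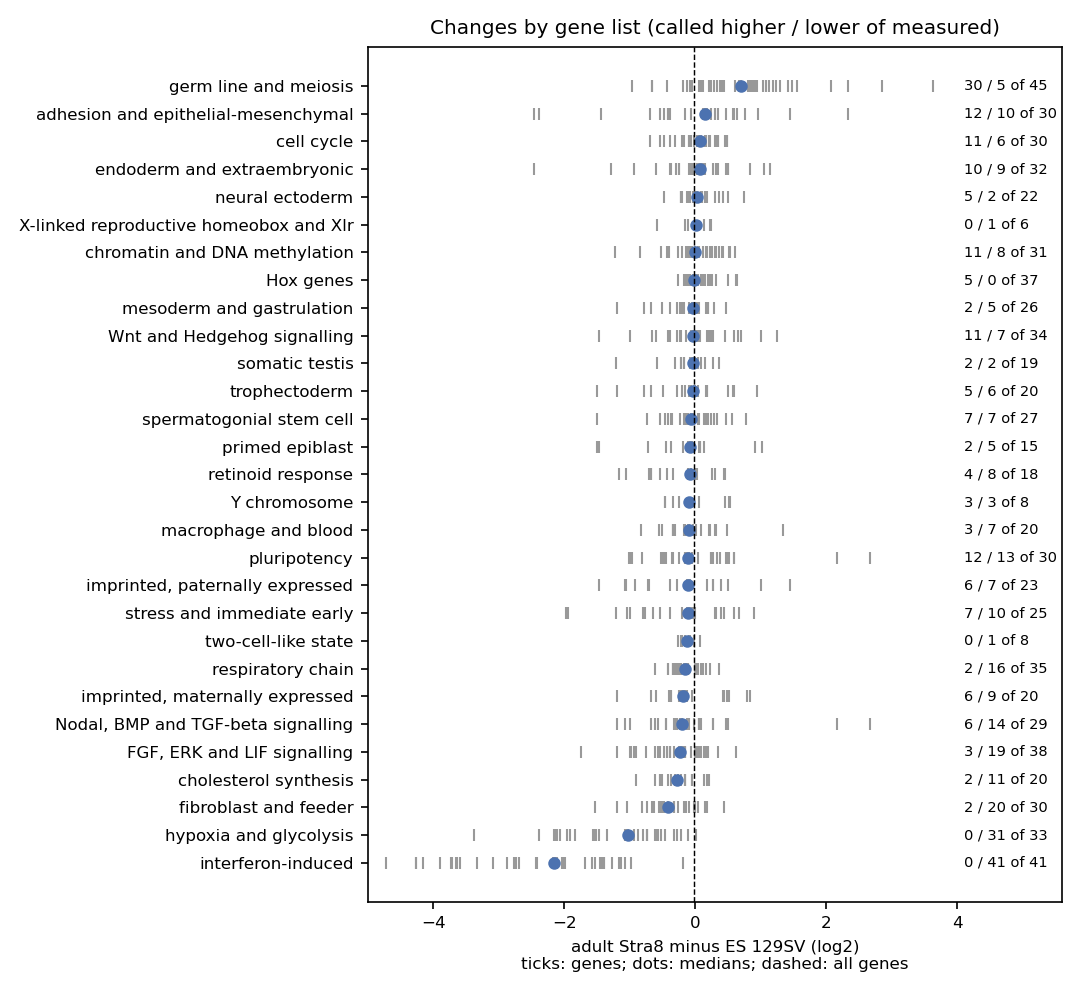
Grey ticks are the genes of 29 lists by their change in adult Stra8 minus ES 129SV (log2), blue dots are list medians, the dashed line is the median of all genes (-0.02), and the numbers give genes called higher and lower of those measured. The interferon and hypoxia lists lie lowest and the germ line list highest.

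Imprinted genes, which are read from 1 parental copy, moved both ways. Among 23 paternally expressed genes 6 were higher and 7 lower, and among 20 maternally expressed genes 6 were higher and 9 lower (17.9% and 19.8% of all genes). Peg3 was at 10.83, 10.84 and 10.73 in adult Stra8 cells and at 9.40, 9.37 and 9.28 in ES 129SV cells, a change of 1.45 (SE 0.07). In the opposite direction, Sfmbt2 changed by -1.47 (SE 0.07), Dlk1 by -1.05 (SE 0.06) and Igf2 by -0.73 (SE 0.05). Grb10 rose, as Peg3 did, by 0.79 (SE 0.05). The enzymes of DNA methylation were close, with Dnmt3a at 9.43, 9.42 and 9.34 against 9.41, 9.45 and 9.35 and Dnmt3b at an interval of -0.24 to 0.01. Tet1, which oxidises methylcytosine, changed by 0.52 (SE 0.07), Tet2 by -0.84 (SE 0.07), and the histone methyltransferase gene Ehmt2 by -1.22 (SE 0.05). The other probe sets of Tet1 gave 0.32 and 0.13, the latter not passing the test (adjusted p = 0.0528, limma).

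Among the microRNA genes that were called, increases far outnumbered decreases. A microRNA pairs with target messages through its seed, bases 2 to 8, and related microRNAs share it. The array reads the precursor or its host transcript, so no value belongs to a mature arm. Of 271 microRNA genes tested, 62 were higher (22.9%, against 17.9% of all genes) and 4 were lower (1.48%, against 19.8%). Most, 205, were not called, and the median change over the 271 was 0.07. Their signals were lower than those of all genes. Median levels were 6.18 in adult Stra8 and 5.90 in ES 129SV, against 7.61 and 7.63 for all genes. The shares of all genes therefore come from brighter genes. The 12 microRNA genes that reached 2-fold were all higher. With the arrays centred on their medians 58 were higher and 12 lower, and after quantile normalisation 57 and 6. The mature sequences of members of clusters known for pluripotent cells and proliferation are shown from RefSeq (GRCm38.p6), grouped by seed in capitals.
mmu-miR-106a-5p: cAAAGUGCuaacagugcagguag
mmu-miR-20b-5p: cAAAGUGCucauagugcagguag
mmu-miR-20a-5p: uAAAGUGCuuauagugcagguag
mmu-miR-302b-3p: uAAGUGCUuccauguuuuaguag
mmu-miR-19b-3p: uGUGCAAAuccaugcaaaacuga
mmu-miR-363-3p: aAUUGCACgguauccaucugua
mmu-miR-92a-3p: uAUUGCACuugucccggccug
The first 3 share the seed AAAGUGC, miR-302b carries AAGUGCU, which is shifted by 1 base, and the last 2 share AUUGCAC. The microRNA genes named here were chosen after their values were seen.

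The cluster of Mir106a to Mir363 on the X chromosome was higher at all 5 genes, with a median change of 1.33. Of all genes 17.9% were higher, and of all microRNA genes 22.9%. Mir20b was at 7.03, 6.74 and 6.81 in adult Stra8 cells and at 5.48, 5.51 and 5.29 in ES 129SV cells, a change of 1.43 (SE 0.13, adjusted p = 1.51e-07, limma). Its paralogous cluster on chromosome 14, Mir17 to Mir19b-1, was higher at all 5 genes, with a median of 0.84 and Mir19b-1 at 1.18 (SE 0.12). Genes of a cluster may share 1 transcript, so they are not independent. Both clusters were higher in the Stra8 groups, with median levels in the X cluster of 6.86 in adult Stra8, 6.64 in ES Stra8, 5.53 in adult 129SV and 5.43 in ES 129SV.

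The ES-cell cluster of Mir302 and Mir367 on chromosome 3 was higher at 4 of 5 genes (17.9% of all genes). Its signals were low, with Mir302b at 4.98, 4.82 and 4.54 against 3.60, 3.14 and 3.33. In the imprinted cluster on chromosome 12, 16 of 29 genes of its larger group were higher (17.9% of all genes), with a median of 0.46. Over these genes ES Stra8 stood above both compared groups, at a median of 7.90 against 6.77 in adult Stra8 and 6.14 in ES 129SV. Of 8 genes in the smaller group of this cluster, 4 were higher, with a median of 0.39. Small nucleolar RNA genes gave 27 higher and 3 lower of 55 (17.9% and 19.8% of all genes). Gas5, a host transcript of some of them that lies on chromosome 1, changed by 1.90 (SE 0.05). Its other probe sets gave 0.55, 1.03 and 1.52.

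Increases were concentrated on chromosome 1. With genes placed by RefSeq, 32 of the 182 genes at least 2-fold higher (17.6%) lay there, against 5.65% of all genes tested. Of the genes on chromosome 1, 2.84% were at least 2-fold higher, against 0.913% of all genes. The X chromosome was also above that share, with 16 of 742 genes (2.16%). Of the 15 largest increases, Lefty1, Lefty2, Kif1a, Boll, Fam178b and 1700019A02Rik, 6 in all, are chromosome 1 genes. Without chromosome 1, 150 genes were at least 2-fold higher. Of the other 41 germ line members, 26 were higher and 5 lower (17.9% and 19.8% of all genes), with a median of 0.67. The position of genes was examined after their values were seen.

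The shift covered the chromosome rather than a few genes. Over the 593 chromosome 1 genes whose mean over all arrays exceeded 7.29, the median of all deposited values, the median change was 0.25, and 73.5% of them changed upward. The medians of the other autosomes and of X lay between -0.07 and 0.05. By array, the chromosome 1 median relative to the ES 129SV mean was 0.28, 0.24 and 0.23 in adult Stra8 and 0.01, 0.02 and -0.02 in ES 129SV. The groups did not overlap, and an exact permutation test over the arrays gave p = 0.1 (two-sided), the smallest that 3 against 3 arrays allow. Any 3 against 3 arrays without overlap give this value, and the chromosome was chosen after its values were seen. The test therefore adds no support. In 10 blocks of neighbouring genes along the chromosome, each of 59 or 60 genes, the median ran from 0.18 to 0.33. The same chromosome 1 median was 0.03 for ES Stra8 minus ES 129SV and -0.13 for adult 129SV minus ES 129SV. The number of chromosomes in these cells was not analysed here.

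**Figure D5:**
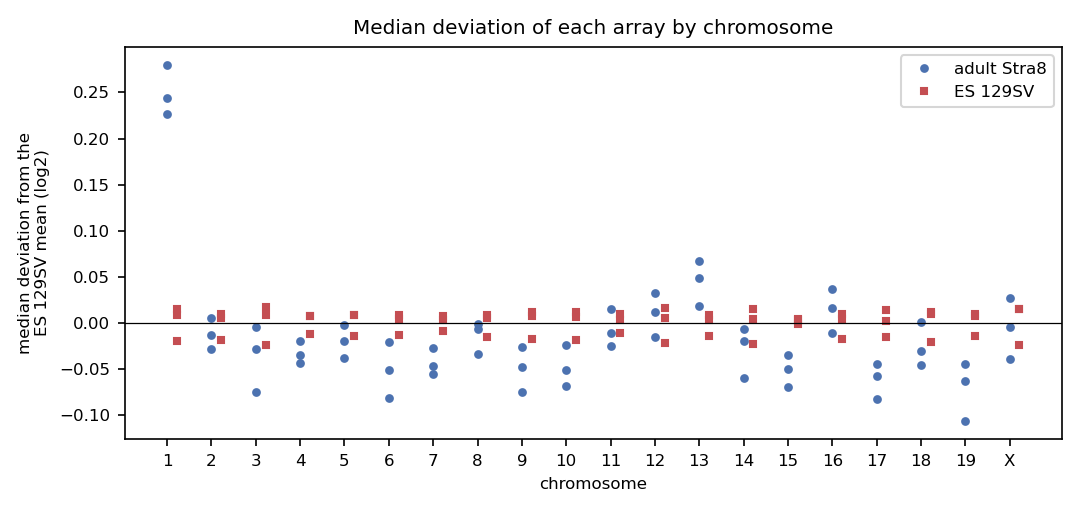
For each chromosome, points give the median deviation (log2) of its genes on each adult Stra8 array (blue circles) and each ES 129SV array (red squares) from the ES 129SV mean. The 3 adult Stra8 arrays lie at 0.23 to 0.28 on chromosome 1 and below 0.07 elsewhere.

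Among the 568 genes at least 2-fold different, ES Stra8 was nearer to adult Stra8 for 361 of 386 decreases and 140 of 182 increases. Adult 129SV was nearer to adult Stra8 for 310 of the decreases but only 21 of the increases. A gene was sorted by whether ES Stra8 and adult 129SV each had a mean nearer to adult Stra8 or to ES 129SV. Of the 386 lower genes, 307 (79.5%) had both groups nearer to adult Stra8, leaving ES 129SV apart, and 54 were split by background. Of the 182 higher genes, 122 (67.0%) were split by background, 39 (21.4%) left adult Stra8 apart and 18 (9.89%) left ES 129SV apart. A split by origin, with the adult groups on one side and the ES groups on the other, was seen in 3 lower genes, Adap1, Septin1 and Spry4, and in 3 higher genes, Car4, Slc4a5 and Gm10785. These 6 genes were chosen after their values were seen, except Spry4 and Car4. The sorting describes group means without a test.

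Spry4, the ERK inhibitor, had means of 11.10 in ES 129SV, 10.62 in ES Stra8, 10.53 in adult 129SV and 10.09 in adult Stra8, so the group means of the shared origin or background lay midway. Car4, a carbonic anhydrase on the cell surface, was at 9.55, 9.61 and 9.48 in adult Stra8 cells and at 8.05, 8.16 and 8.09 in ES 129SV cells. Its mean was 9.11 in adult 129SV and 7.82 in ES Stra8, and adult Stra8 exceeded ES Stra8 by 1.73 (adjusted p = 5.12e-10, limma). Tspan8, a tetraspanin of epithelia, was high in adult Stra8 only by these means, at 8.38 against 6.12 in ES Stra8, 6.40 in adult 129SV and 6.04 in ES 129SV. Enpp3, an ectonucleotidase, was the reverse, at 7.74, 7.71 and 7.53 in adult Stra8 cells and 10.10, 10.05 and 9.99 in ES 129SV cells, with 9.97 in ES Stra8 and 10.41 in adult 129SV. Nlrp4a, an oocyte gene chosen after its values were seen, changed by 1.66 (SE 0.09) and had means of 4.54 and 4.58 in the other 2 groups.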

How the data were processed

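Total RNA of 18 mouse cultures was hybridised to Affymetrix Mouse Gene 1.0 ST arrays. The deposited values are log2 RMA signals of 35556 probe sets, which the authors computed in Expression Console of Affymetrix (source: the submitters' processing notes, per the labels). They carry no detection calls, so depth is not defined. Gene names came from the array's annotation with symbols updated through RefSeq (GRCm38.p6): 21789 had 1 symbol, 1621 several and 12146 none. For 999 genes with several probe sets the brightest was used. Group means of all 18 arrays were fitted with limma 3.58.1 in R 4.3.3, and p-values were adjusted by Benjamini-Hochberg over 19938 genes. Genes called lay at an adjusted p under 0.05. The fit was run on simulated data with independent normal noise, which checks the code and not whether the real arrays are independent. Named genes are the 15 largest increases and decreases without overlap, up to 4 called members with the largest change in each of 29 lists (697 genes measured), and a short fixed set, with others marked where they appear. The comparison, members and lists were chosen with earlier results of these data known. Replicate numbers did not pair the arrays. Alternatives covered the arrays fitted, scaling, dim genes, probe sets, weights, the replicate block and leaving out each array.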

Additional observations from a re-analysis of the deposited data

How the results depend on the processing

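Counts of genes called over all genes stayed within 1.5 times their value under all alternatives. Counts within small lists moved more, for example with the arrays centred: lower microRNA genes went from 4 to 12, lower somatic testis genes from 2 to 5, lower neural genes from 2 to 4, higher retinoid genes from 4 to 2 and higher cholesterol genes from 2 to 0 (limma, adjusted). In the fit with the replicate number as a block (replicate block), 7498 genes were called, 568 of them at least 2-fold, and no call of a named gene changed. The numbers did not pair the arrays: deviations of same-numbered arrays correlated at 0.061, -0.002 and 0.066. With the arrays centred on their medians, the share of higher genes among those called was 38.6% against 47.5%. Of the named genes, Dnmt3a turned its sign, at 0.0128 after quantile normalisation, 0.0028 with array weights, and between -0.0324 and 0.0253 with 1 array left out. Kit turned to -0.0151 without ES 129SV array 3, and ranged up to 0.0895 with other arrays left out. Neither passed the test in any of these. Dnmt3b passed it only with the arrays centred, at an adjusted p of 0.0367 (limma). Calls were lost by 1 named gene with the 6 compared arrays and by 1 to 3 with 1 array left out. A call was also gained by 1 named gene with 12 undifferentiated arrays, with the 6 compared arrays, with array weights and after quantile normalisation. Chromosome 1 kept a median change of 0.20 when centred and 0.24 when quantile normalised, both chosen after seeing the data. Without detection calls, low signals cannot be told from background.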

Other observations

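Immediate-early and stress genes gave 10 lower and 7 higher of 25 in adult Stra8 cells (19.8% and 17.9% of all genes). Gadd45b, a DNA-damage and stress sensor, changed by -1.97, and Hmox1, which breaks down haem, by -1.22. Of 20 genes of cholesterol synthesis, 11 were lower and 2 were higher (19.8% and 17.9% of all genes), with a median of -0.28, and none reached 2-fold. With the arrays centred 15 were lower and 0 higher (limma, adjusted), and at an unadjusted p under 0.05 without centring 2 were higher. Cell cycle genes gave 11 higher and 6 lower of 30 (17.9% and 19.8% of all genes), and none reached 2-fold. On the Y chromosome, 3 of 8 genes were higher and 3 were lower (17.9% and 19.8% of all genes).

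Chromosomes 8 and 11 set the compared groups apart from the other undifferentiated arrays and not from each other. The median over the brighter genes was -0.03 on chromosome 8 and -0.01 on chromosome 11 for adult Stra8 minus ES 129SV. For ES Stra8 minus ES 129SV it was 0.17 and 0.16, and for adult 129SV minus ES 129SV it was 0.27 and 0.26. These comparisons share the ES 129SV arrays, the chromosomes were chosen after their values were seen, and no test was run.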
